A study of Homo sapiens with 60 samples.

Results

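Soshiho-tang and Yijin-tang, each given as a hot-water extract at 500 µg/mL for 24 h, were compared in 5 of the 60 RNA-seq libraries of the study. The members were taken from the sample labels: both libraries of Soshiho-tang at the high dose (replicates 2 and 3) and all 3 libraries of Yijin-tang at the high dose (replicates 1, 2 and 3), which share a dose, an extraction solvent and a library set. The cells were SW1783, a human astrocytoma line from the ATCC, kept in Leibovitz's L-15 medium with heat-inactivated fetal bovine serum, so all groups share 1 genotype and 1 medium. The study treated this line with water or ethanol extracts of herbal medicines, mostly at 3 doses, and with the vehicle dimethyl sulfoxide (DMSO). The groups used here are Soshiho-tang at 20, 100 and 500 µg/mL (2 libraries a dose), Yijin-tang at 20, 100 and 500 µg/mL (3 libraries a dose) and the vehicle (3 libraries, in a library set of its own). The labels and the design text give different DMSO concentrations, and no vehicle library lies in the set of the decoctions, so vehicle levels are given only for orientation. Nothing in the labels ties the replicates to separate cultures of this 1 tumour line, so the p-values rest on the spread between libraries, which may be technical.

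Both medicines are classical decoctions of several herbs. Soshiho-tang (Xiaochaihu-tang in Chinese, Sho-saiko-to in Japanese) is traditionally built on bupleurum and scutellaria root with pinellia, ginseng, licorice, ginger and jujube, and Yijin-tang (Erchen-tang) on pinellia and citrus peel with poria, licorice and ginger. Neither recipe is stated in the labels. Much of what follows concerns the integrated stress response, in which kinases that sense amino acid shortage, misfolded protein or lack of haem slow translation and favour that of ATF4, a transcription factor that switches on genes of amino acid supply and of cell stress. It also concerns the aryl hydrocarbon receptor (AHR), a ligand-activated transcription factor that induces cytochrome P450 genes such as CYP1A1 and CYP1B1 and its own repressor AHRR.

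The 2 Soshiho-tang libraries held 29.82 and 30.42 M counts (M, 1e6) and the 3 Yijin-tang libraries 23.99, 25.2 and 30.28 M, and mitochondrially encoded genes took 13.1% of counts in both Soshiho-tang libraries and 11.7% to 13.2% in the Yijin-tang libraries. Of 14 astroglial and neural stem cell markers, VIM, CD44, GJA1, SOX9, SLC1A3, NES and NFIA were detected in all 5 libraries. The other 7, among them the defining astrocyte genes GFAP, S100B, AQP4 and ALDH1L1, lay under 1 CPM (counts per 1e6, scaled to library size) in all 5, so the cells carried few markers of mature astrocytes. The summed level of the 14 markers was 7810 to 7990 CPM with Soshiho-tang and 7080 to 7390 CPM with Yijin-tang. VIM and CD44 made up most of this sum and moved in opposite directions. They stood at 0.33 and -0.23 on the log2 scale, Soshiho-tang over Yijin-tang (edgeR adjusted p = 2.39e-07 and 0.00163). Of the 8 markers tested 3 rose and 3 fell. The microglial sum of 10 markers, 223 to 240 CPM with Soshiho-tang and 230 to 255 CPM with Yijin-tang, came almost entirely from the lysosomal gene CD68, while TYROBP, C1QA and C1QB were listed at 0 in all 5 libraries. The neuronal sum was lower with Soshiho-tang (44.2 to 44.8 CPM, against 51.8 to 56.6 CPM with Yijin-tang), the epithelial sum lower (80.1 to 88.2 CPM, against 99.6 to 112 CPM) and the endothelial sum higher (36.6 to 39.5 CPM, against 29.9 to 34.4 CPM). Of these markers 6 of 10, 5 of 8 and 5 of 8 lay under 1 CPM in all 5 libraries, and GAD2 and SLC17A6 were listed at 0. Single markers moved in opposite directions: SNAP25 stood at -0.92 and SYT1 at 0.5 on the log2 scale among the neuronal ones (edgeR adjusted p = 7.67e-13 and 1.03e-05). Among the endothelial ones KDR stood at 0.28 and PECAM1 at -1.03 (edgeR adjusted p = 0.0201 and 0.00588). KDR did not pass without Soshiho-tang replicate 3 or Yijin-tang replicate 1 (edgeR adjusted p = 0.244 and 0.11), nor PECAM1 without Soshiho-tang replicate 3 (edgeR adjusted p = 0.0858). KDR made up most of the endothelial sum and KRT18 most of the epithelial sum. KRT18 stood at -0.36 (edgeR adjusted p = 0.0388). Its call was lost without Soshiho-tang replicate 2 or 3, at -0.43 and -0.3. Nor did KRT18 pass without Yijin-tang replicate 1 or 3 (edgeR adjusted p = 0.0609 and 0.149). The part of these shifts in the results below was not tested.

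At 500 µg/mL, cells given Soshiho-tang had more mRNA of ATF4 stress regulators, amino acid enzymes, haem oxygenase and sterol genes, and less mRNA of collagens, ID proteins, hypoxia targets, mitotic genes and AHR targets, than cells given Yijin-tang. The 12 largest rises by the naming rule, on the log2 scale of Soshiho-tang over Yijin-tang, lay between 3.16 for GDF15, a stress-induced secreted factor, and 1.88 for HKDC1, a hexokinase-like gene. Among them were GDF15, HMOX1, ADM2, TRIB3, CHAC1, RND3, THBD, SESN2, ABCA1, RAB39B and HKDC1. The 12 largest falls included RASL11A, ID2, VAV3, SERPINB3, ATOH8, EGLN3, CYP24A1, FER1L4, FGF7, TCAF2 and ID3, and lay between -2.45 for RASL11A, a Ras-like GTPase, and -1.58 for ID3, an inhibitor of helix-loop-helix transcription factors.

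Of 17851 genes tested with edgeR's quasi-likelihood test, 3918 (21.9%) passed at an adjusted p of 0.05. Among these, 2022 (11.3%) were higher and 1896 (10.6%) lower with Soshiho-tang. Counts of list members that rose or fell are to be read beside these shares. Most differences were small: 72.8% of the genes that passed differed by less than 1.5-fold, and 411 (2.3%) differed by at least 2-fold, 158 of them higher and 253 lower. The libraries of the 2 groups did not overlap in 51.0% of all genes tested, so an absence of overlap sets no gene apart by itself. The largest rises and falls named above were chosen among genes without overlap, so their separation is no further result. Up to 4 members of each list below were chosen for a low adjusted p among those that passed. That these members passed or did not overlap is no further result either. Leaving out Soshiho-tang replicate 2 left 2508 calls and leaving out replicate 3 left 2513, with 1 library then standing for that group and assumed to vary like the other groups. As the samples are bulk RNA, fewer cells of a kind and less RNA per cell cannot be told apart.

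**Figure D1:**
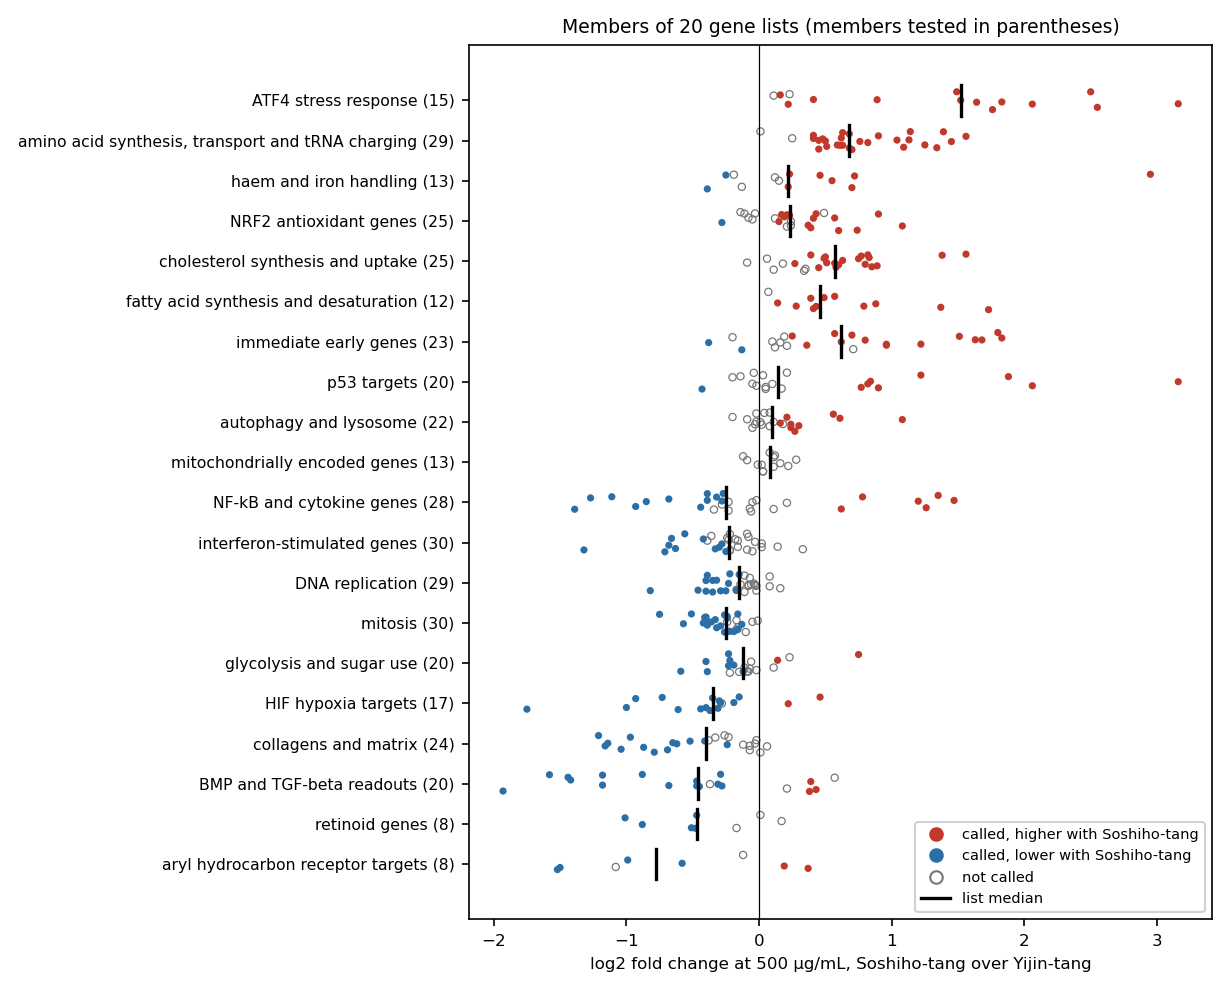
Each point is a member of 1 of 20 gene lists; the x axis is its log2 fold change at 500 µg/mL, Soshiho-tang over Yijin-tang, filled where the member passed, with a bar at the list median. The medians run from 1.52 for ATF4 stress genes to -0.78 for the list of AHR targets, which also holds AHR and ARNT.

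The ATF4 stress regulators had the highest median of the lists: 13 of the 15 members tested rose and the other 2, DDIT4 and VLDLR, did not pass. Their median log2 fold change was 1.52, beside 0 for all genes. GDF15 (chr19:18374731-18389176, plus strand, GRCh38) had 27.8 and 28.4 CPM with Soshiho-tang, against 3.1, 3.21 and 3.1 CPM with Yijin-tang. Both Soshiho-tang libraries lay far above all Yijin-tang libraries, which in turn lay near the vehicle mean of 2.85 ± 0.14 CPM (SD, n = 3), and the log2 fold change was 3.16 ± 0.12 (SE, edgeR adjusted p = 1.78e-24). TRIB3, a pseudokinase that restrains ATF4, had 165 and 165 CPM with Soshiho-tang, against 28.4, 28.6 and 27.7 CPM with Yijin-tang, a log2 fold change of 2.55 ± 0.08 (SE, edgeR adjusted p = 2.04e-27). The Soshiho-tang libraries were alike and high, and the Yijin-tang libraries were close to the vehicle mean of 26 ± 0.683 CPM (SD, n = 3).

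CHAC1, which degrades glutathione, had 39.6 and 36.5 CPM with Soshiho-tang, against 6.87, 6.77 and 6.55 CPM with Yijin-tang, and SESN2, a leucine sensor that restrains mTORC1, had 113 and 108 CPM against 28, 27.4 and 24.1 CPM. The log2 fold changes were 2.5 ± 0.10 and 2.06 ± 0.06 (SE, edgeR adjusted p = 5.83e-24 and 1.24e-28). ATF4 mRNA itself rose by 1.52 on the log2 scale (edgeR adjusted p = 1.68e-23). The transcription factors beside it rose as well: ATF3 by 1.83, NUPR1 by 1.76, DDIT3 (CHOP) by 1.49, CEBPG by 0.89 and CEBPB by 0.41. PPP1R15A, the phosphatase subunit that ends the translation block, rose by 1.64. Of those named here, VEGFA and STC2 rose least, by 0.22 and 0.16. ADM2, a secreted peptide of the calcitonin family that lies outside the list, had 25.5 and 26.5 CPM with Soshiho-tang, against 4.51, 4.14 and 4.06 CPM with Yijin-tang.

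Within each decoction, the high dose was set against the low dose of the same extract. The median log2 change of the ATF4 list from 20 to 500 µg/mL was 1.51 with Soshiho-tang and 0.07 with Yijin-tang. At the lower doses the list's medians, Soshiho-tang over Yijin-tang, were -0.05 at 100 µg/mL and -0.03 at 20 µg/mL. STC2, a secreted glycoprotein of this list, passed in the opposite direction there, at -0.51 at 100 µg/mL and -0.38 at 20 µg/mL (edgeR adjusted p = 4.96e-12 and 8.34e-08).

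**Figure D2:**
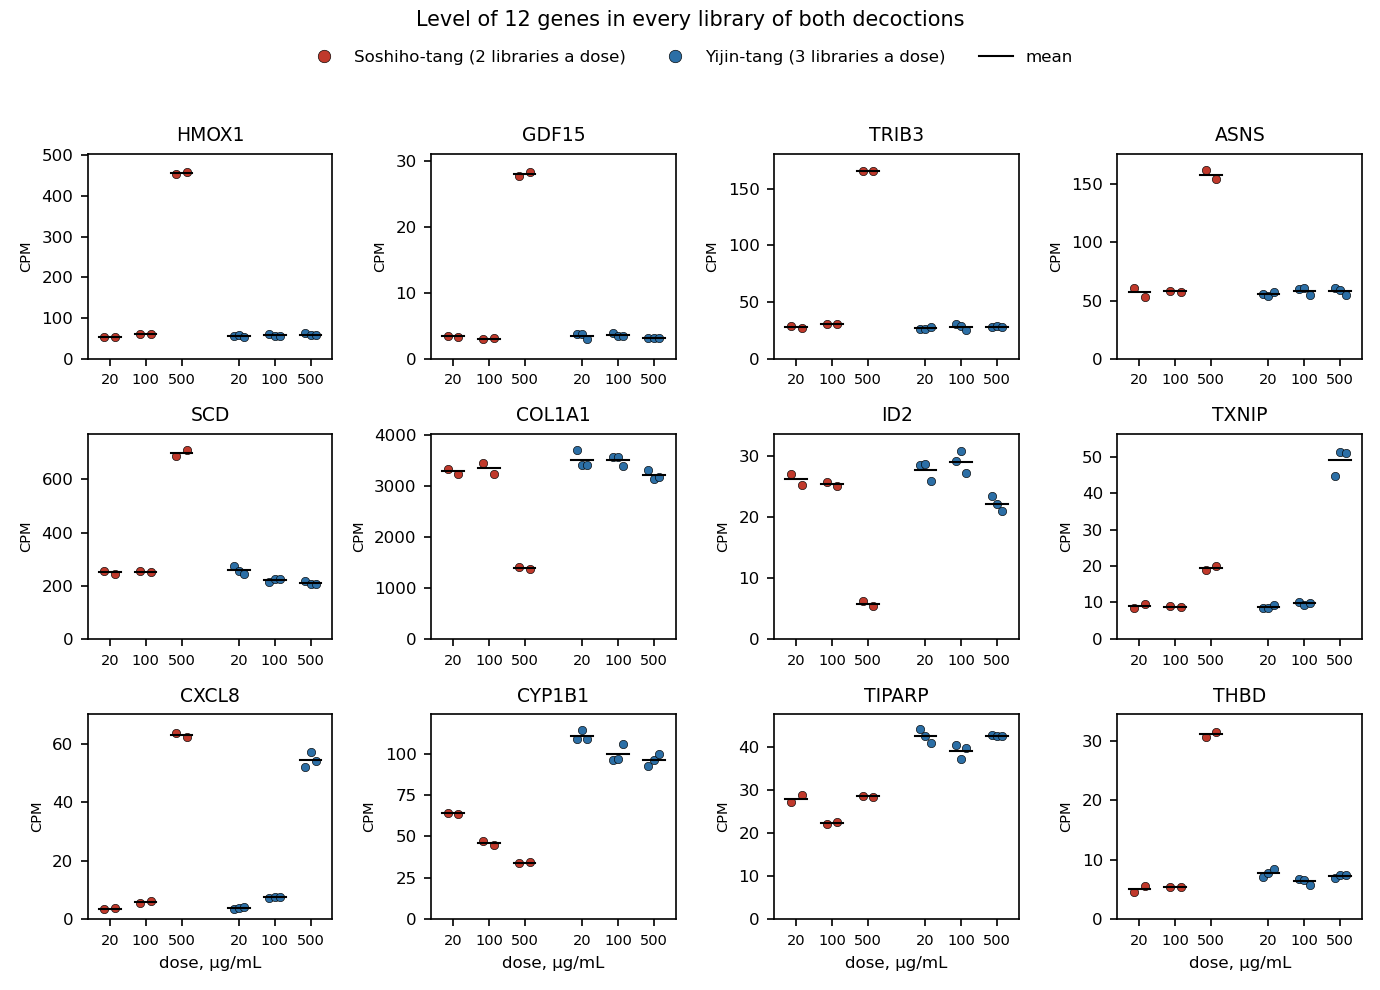
CPM (y axis, from 0) of 12 genes in every library, with Soshiho-tang (red, 2 libraries a dose) left of Yijin-tang (blue, 3 libraries a dose) and dose in µg/mL on the x axis; bars are means. HMOX1, GDF15, TRIB3 and ASNS are high in both Soshiho-tang libraries at 500 µg/mL alone, TXNIP is highest with Yijin-tang at 500 µg/mL, and CYP1B1 is lower with Soshiho-tang at each dose.

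Genes of amino acid supply moved with the stress regulators: 27 of 29 rose, with a median of 0.68, and ALDH18A1 and SLC38A2 did not pass. ASNS, asparagine synthetase, had 162 and 154 CPM with Soshiho-tang, against 60.7, 59 and 54.7 CPM with Yijin-tang. The lowest Soshiho-tang library was more than 2-fold above the highest Yijin-tang library, and the log2 fold change was 1.45 ± 0.06 (SE, edgeR adjusted p = 6.81e-22). PSAT1, of serine synthesis, had 158 and 158 CPM against 63.4, 64.5 and 59.6 CPM, a log2 fold change of 1.34 ± 0.05 (SE, edgeR adjusted p = 2.53e-23). The other steps of serine and one-carbon metabolism rose by less, PHGDH by 0.82, MTHFD2 by 0.9 and SHMT2 by 0.63. The transsulfuration enzymes CBS and CTH rose by 1.56 and 1.39, and SLC7A11, which imports cystine, and its partner SLC3A2 by 1.13 and 1.09.

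All 10 aminoacyl-tRNA synthetases of the list rose, by 0.41 for WARS1 to 1.04 for GARS1. GARS1, which charges glycine tRNA, had 376 and 378 CPM with Soshiho-tang, against 180, 181 and 188 CPM with Yijin-tang. AARS1, which charges alanine tRNA, had 295 and 298 CPM against 177, 183 and 189 CPM, a log2 fold change of 0.7 ± 0.04 (SE, edgeR adjusted p = 1.56e-18). The groups did not overlap in either gene, and the median change of the list between 20 and 500 µg/mL was 0.68 with Soshiho-tang and 0 with Yijin-tang.

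The promoters of 4 of these genes are shown because they hold the composite element that ATF4 and C/EBP proteins bind together, searched as TGATGNAA on both strands in RefSeq promoter windows (GRCh38.p14) that lie mostly upstream of a listed start. CHAC1, ATF3, ASNS and SLC3A2 are printed 5′ to 3′ on the gene's strand, with the match in capitals. The windows are chr15:40953221-40953520 (plus strand) for CHAC1, chr1:212565157-212565456 (plus strand, 1 of 2 listed windows) for ATF3, chr7:97872359-97872658 (minus strand, 1 of 2) for ASNS and chr11:62881449-62881748 (plus strand, 1 of 3) for SLC3A2.
CHAC1: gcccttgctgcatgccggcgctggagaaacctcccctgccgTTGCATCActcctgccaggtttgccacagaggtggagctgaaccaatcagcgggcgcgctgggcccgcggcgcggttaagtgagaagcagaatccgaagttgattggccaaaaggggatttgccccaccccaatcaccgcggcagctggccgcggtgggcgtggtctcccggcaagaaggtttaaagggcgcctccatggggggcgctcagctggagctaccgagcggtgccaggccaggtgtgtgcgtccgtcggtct
ATF3: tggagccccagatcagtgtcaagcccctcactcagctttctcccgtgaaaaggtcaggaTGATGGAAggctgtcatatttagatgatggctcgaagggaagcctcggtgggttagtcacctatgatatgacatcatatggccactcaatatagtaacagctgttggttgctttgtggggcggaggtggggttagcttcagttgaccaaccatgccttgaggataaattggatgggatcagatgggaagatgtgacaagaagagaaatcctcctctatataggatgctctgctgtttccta
ASNS: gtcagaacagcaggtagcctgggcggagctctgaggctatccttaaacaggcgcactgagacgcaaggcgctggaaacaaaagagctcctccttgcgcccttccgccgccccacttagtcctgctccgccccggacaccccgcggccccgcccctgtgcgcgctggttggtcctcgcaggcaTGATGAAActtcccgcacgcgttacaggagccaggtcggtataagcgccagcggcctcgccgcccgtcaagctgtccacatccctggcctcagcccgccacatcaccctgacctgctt
SLC3A2: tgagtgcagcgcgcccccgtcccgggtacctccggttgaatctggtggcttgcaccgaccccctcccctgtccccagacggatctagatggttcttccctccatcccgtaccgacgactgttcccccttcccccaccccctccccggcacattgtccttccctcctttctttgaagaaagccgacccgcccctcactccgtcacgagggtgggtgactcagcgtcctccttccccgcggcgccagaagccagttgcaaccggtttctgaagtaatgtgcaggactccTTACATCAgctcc
Among members with a window, 3 of 13 of the stress list (CHAC1, ATF3 and CEBPG) and 11 of 23 of the amino acid list held a match, among them GARS1, AARS1, MARS1, CARS1, NARS1 and TARS1. Of all 27305 genes with a window, 4.46% held one. A match describes these letters and is no evidence of binding.

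HMOX1, haem oxygenase 1, which opens the haem ring and frees iron, was the second largest rise. HMOX1 (chr22:35380361-35394214, plus strand, GRCh38) had 454 and 459 CPM with Soshiho-tang, against 62.2, 57.5 and 58 CPM with Yijin-tang. Both Soshiho-tang libraries were about 7-fold above every Yijin-tang library, the Yijin-tang libraries lay near the vehicle mean of 54 ± 4.71 CPM (SD, n = 3), and the log2 fold change was 2.95 ± 0.07 (SE, edgeR adjusted p = 1.98e-32). Of the 13 haem and iron genes tested, 7 rose and 2, ACO1 and NCOA4, fell. The ferritin chains FTH1 and FTL, which store iron, rose by 0.72 and 0.7, and BLVRB, a biliverdin reductase, by 0.55. ALAS1, the first enzyme of haem synthesis, had 79.4 and 81.4 CPM with Soshiho-tang, against 57.8, 60.3 and 57.4 CPM with Yijin-tang. ACO1, whose protein doubles as an iron sensor, fell by 0.39 on the log2 scale (edgeR adjusted p = 1.11e-09).

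Antioxidant genes driven by NRF2 differed by less: 14 of 25 rose and 1, AKR1B1, fell, with a median of 0.23. SQSTM1, the autophagy adaptor p62, had 1270 and 1250 CPM with Soshiho-tang, against 600, 598 and 596 CPM with Yijin-tang, a log2 fold change of 1.08 ± 0.06 (SE, edgeR adjusted p = 8.04e-19). GCLC, the catalytic subunit of glutathione synthesis, had 55.8 and 57.2 CPM against 31.2, 28.7 and 30.9 CPM. In both genes the lowest Soshiho-tang library lay above the highest Yijin-tang library. OSGIN1 rose by 0.74, TXNRD1, thioredoxin reductase, by 0.6 and NQO1, the quinone reductase often used as the standard NRF2 readout, by 0.19. Expected counts split reads between near-identical genes, so the values of AKR1C1, AKR1C2 and AKR1C3 in this list are uncertain.

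Genes of cholesterol synthesis and uptake were higher with Soshiho-tang: 19 of 25 rose, with a median of 0.57. INSIG1, a sterol-sensing brake on SREBP processing, had 306 and 320 CPM with Soshiho-tang, against 122, 121 and 118 CPM with Yijin-tang. The groups did not overlap, and the log2 fold change was 1.38 ± 0.05 (SE, edgeR adjusted p = 2.96e-26). Of the enzymes, HMGCS1 rose by 0.77, SQLE by 0.83 and MSMO1 by 0.89.

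The difference had contributions from both extracts. From 20 to 500 µg/mL the list's median moved by 0.37 with Soshiho-tang and by -0.19 with Yijin-tang. HMGCS1 rose by 0.34 between these doses of Soshiho-tang and fell by 0.37 between those of Yijin-tang (edgeR adjusted p = 3.6e-05 and 1.11e-06). At 100 µg/mL INSIG1 had passed in the other direction, at -0.25, Soshiho-tang over Yijin-tang (edgeR adjusted p = 0.00235), a call lost without the low-count filter (edgeR adjusted p = 0.0596) and without Soshiho-tang replicate 2 or 3 at that dose (edgeR adjusted p = 0.0885 and 0.0812).

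Of 12 genes of fatty acid synthesis, 11 rose, with a median of 0.46, and ACLY did not pass. SCD, which makes monounsaturated fatty acids, had 687 and 709 CPM with Soshiho-tang, against 218, 208 and 207 CPM with Yijin-tang, a log2 fold change of 1.73 ± 0.10 (SE, edgeR adjusted p = 1.56e-18). SREBF1, which encodes the transcription factor SREBP1, had 155 and 156 CPM against 61.8, 61.6 and 56.7 CPM. Both genes were more than 2-fold higher in each Soshiho-tang library than in any Yijin-tang library, while FASN, fatty acid synthase, rose by 0.79. PLIN2, a lipid droplet coat protein, had 165 and 167 CPM against 61.7, 60.2 and 60.4 CPM.

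ABCA1, the cholesterol exporter, was the 1 member of the 6 export genes that passed. ABCA1 had 199 and 216 CPM with Soshiho-tang, against 51.4, 49.7 and 49.9 CPM with Yijin-tang, a log2 fold change of 2.04 ± 0.14 (SE, edgeR adjusted p = 5.73e-16). ABCG1, another of the export genes, stood at 1.07 with an edgeR adjusted p of 0.0708. When the fit held only the libraries compared or only the decoctions' library set, 3 of the export genes passed. Of 11 genes of fatty acid use and PPAR targets, 5 rose (PLIN2, ANGPTL4, PPARG, CPT1A and PPARD) and 1, CPT2, fell.

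Cytokine genes were higher at 500 than at 20 µg/mL of either decoction, and the extracts differed in which ones stood higher. The median log2 change of the 28 NF-kB and cytokine genes tested, from 20 to 500 µg/mL, was 1.47 with Soshiho-tang and 1.6 with Yijin-tang. CXCL8, the neutrophil chemokine IL-8, had 63.8 and 62.4 CPM with Soshiho-tang, against 52.1, 57.1 and 54.1 CPM with Yijin-tang; at 20 µg/mL its levels were 3.57 and 3.64 CPM against 3.57, 3.86 and 4.09 CPM. The groups were close and did not overlap at 500 µg/mL, and the log2 fold change of 0.21 (unadjusted 95% interval 0.04 to 0.39) did not pass (edgeR adjusted p = 0.0785). It passed with edgeR fits to only the libraries compared (adjusted p = 0.00742) or only the library set (adjusted p = 0.00127).

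Between the decoctions at 500 µg/mL, 6 of the 28 cytokine genes were higher and 12 lower with Soshiho-tang. LIF, a cytokine of the IL-6 family, had 116 and 114 CPM with Soshiho-tang, against 46.3, 47 and 42.1 CPM with Yijin-tang, a log2 fold change of 1.35 ± 0.07 (SE, edgeR adjusted p = 4.78e-19). IL11, of the same family, went the other way, with 73.3 and 72.4 CPM against 179, 180 and 166 CPM and a log2 fold change of -1.27 ± 0.07 (SE, edgeR adjusted p = 3.71e-18). Neither gene's groups overlapped. IL6 itself had 17.7 and 16.2 CPM with Soshiho-tang, against 24.9, 22.4 and 19.3 CPM with Yijin-tang, a log2 fold change of -0.39 ± 0.12 (SE, edgeR adjusted p = 0.0143) that did not pass without Soshiho-tang replicate 3 (adjusted p = 0.18) or Yijin-tang replicate 1 (adjusted p = 0.107). CSF2 and CXCL2 were higher, by 1.47 and 1.26, and CCL2 and CSF3 lower, at -1.11 and -0.93. CXCL1, CXCL2 and CXCL3 are near-identical in sequence, so the split of their reads is uncertain. Without Soshiho-tang replicate 2, 3 members were higher, and without replicate 3, 4 were higher and 8 lower; leaving out any of the 3 Yijin-tang libraries left 4 or 5 higher.

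Complement C3 and the sugar-responsive gene TXNIP were among the genes that stood higher with Yijin-tang. C3 had 39.9 and 40.6 CPM with Soshiho-tang, against 105, 104 and 107 CPM with Yijin-tang, beside a vehicle mean of 34.2 CPM. TXNIP, an inhibitor of thioredoxin and of glucose uptake, had 19 and 20.1 CPM against 44.8, 51.4 and 50.9 CPM, beside a vehicle mean of 10.3 ± 0.579 CPM (SD, n = 3). From 20 to 500 µg/mL TXNIP rose by 1.11 with Soshiho-tang and by 2.49 with Yijin-tang on the log2 scale (edgeR adjusted p = 2.68e-12 and 1.48e-27). TXNIP and ARRDC4 were the 2 of 5 MondoA genes that passed as lower with Soshiho-tang than with Yijin-tang at 500 µg/mL. ARRDC4, like TXNIP a target of this sugar sensor, rose by 0.95 with Yijin-tang (edgeR adjusted p = 4.89e-11) and stood at 0.19 with Soshiho-tang (edgeR adjusted p = 0.309). The difference between these changes passed for all 3 genes, at -1.07 for C3, -1.38 for TXNIP and -0.77 for ARRDC4 (edgeR adjusted p = 1.74e-05, 2.16e-11 and 1.99e-04). FGF7, a growth factor for epithelia, fell by 0.48 with Soshiho-tang and rose by 0.8 with Yijin-tang between the same doses.

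**Figure D3:**
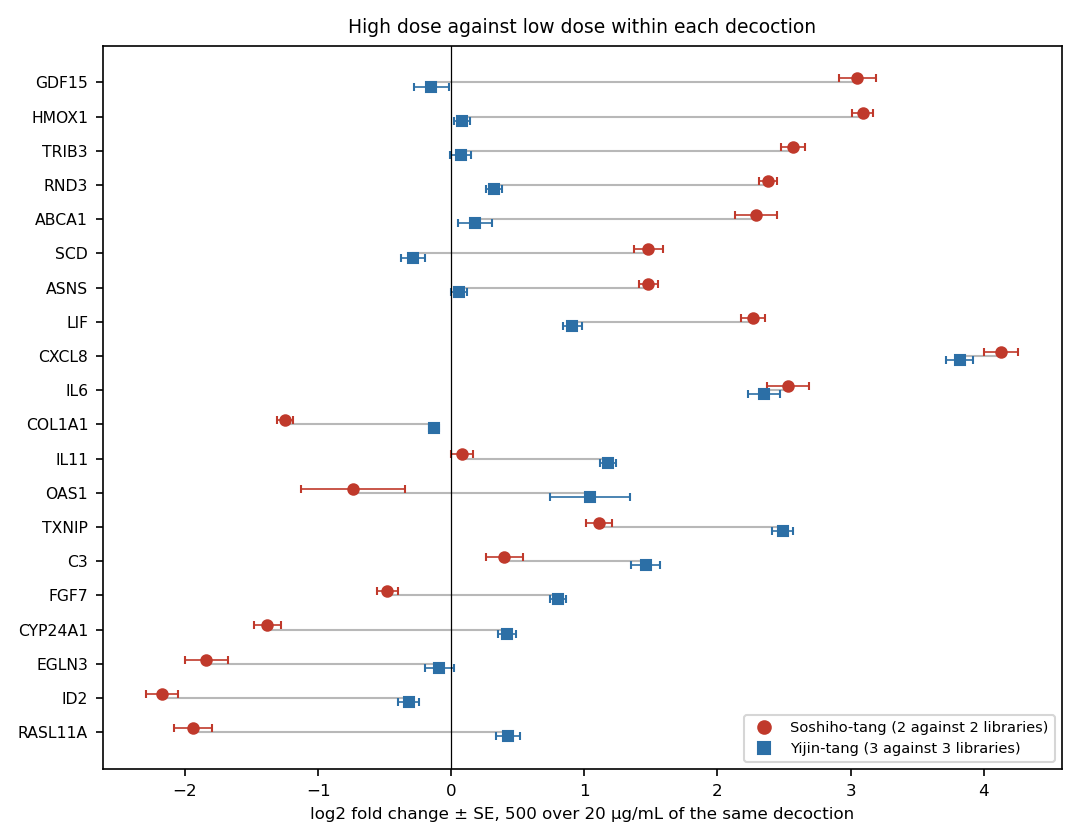
The x axis is the log2 fold change of 500 over 20 µg/mL within each decoction, with its SE, for 20 genes in the order of their difference at 500 µg/mL; red circles are Soshiho-tang and blue squares Yijin-tang. GDF15, HMOX1 and TRIB3 changed by more than 2.5 with Soshiho-tang and by less than 0.2 with Yijin-tang, CXCL8 rose by 4.13 and 3.82, and IL11 stood at 0.08 with Soshiho-tang and 1.18 with Yijin-tang.

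Several AHR targets were lower with Soshiho-tang at every dose. The list tested also holds AHR itself and ARNT beside the targets. At 500 µg/mL, 4 of its 8 genes fell and 2 rose, with a median of -0.78, and the medians were -0.88 at 100 µg/mL and -0.4 at 20 µg/mL. CYP1B1, a cytochrome P450 that oxidises estrogens and polycyclic hydrocarbons (chr2:38066973-38109902, minus strand, GRCh38), had 64 and 63.7 CPM at 20 µg/mL of Soshiho-tang, 47.2 and 44.9 CPM at 100 µg/mL and 33.7 and 34.3 CPM at 500 µg/mL. With Yijin-tang CYP1B1 had 109, 114 and 109 CPM at 20 µg/mL, 96, 96.7 and 106 CPM at 100 µg/mL and 92.5, 95.9 and 100 CPM at 500 µg/mL. The groups did not overlap at any dose, and CYP1B1 was lower at each higher dose of Soshiho-tang. The log2 fold changes, Soshiho-tang over Yijin-tang, were -0.8, -1.11 and -1.5 from the lowest to the highest dose (edgeR adjusted p = 7.16e-09, 8.84e-14 and 3.27e-19), and the vehicle mean was 122 ± 11.3 CPM (SD, n = 3).

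AHRR, the repressor of the receptor, had 22.4 and 22.6, 17.5 and 15.5, and 15.7 and 14.9 CPM at 20, 100 and 500 µg/mL of Soshiho-tang. With Yijin-tang AHRR had 38.8, 37.8 and 34.6 CPM at 20 µg/mL, 31.3, 32.5 and 35.1 CPM at 100 µg/mL and 29.4, 29.3 and 32.1 CPM at 500 µg/mL. The fold change was -0.72 at 20 µg/mL and close to -1 at both higher doses (edgeR adjusted p = 1.21e-06, 8.87e-11 and 4.21e-12). TIPARP, a mono-ADP-ribosyltransferase that also restrains the receptor, stood at -0.6, -0.81 and -0.58 over the 3 doses (edgeR adjusted p = 1.81e-04, 1.99e-07 and 2.97e-06). The difference in AHRR and TIPARP was thus already present at 20 µg/mL, and its change up to 500 µg/mL did not pass for either (edgeR adjusted p = 0.185 and 0.951), whereas for CYP1B1 it did, at -0.71 (edgeR adjusted p = 4.24e-06). For AHRR that change passed with only the libraries compared, at -0.28, and with the length and GC correction, at -0.29 (edgeR adjusted p = 0.0455 and 0.0285). CYP1A1, the classical target, was under 1 CPM in all 5 libraries at 500 µg/mL and had a log2 fold change of -1.52 ± 0.30 (SE, edgeR adjusted p = 1.47e-04). AHR itself and NQO1 were the members that rose, by 0.37 and 0.19; NQO1 is also an NRF2 target, and only 1 of the pair passed without Soshiho-tang replicate 2, Soshiho-tang replicate 3 or Yijin-tang replicate 1. ALDH3A1 and ARNT, at -1.08 and -0.12, did not pass.

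The promoters of AHRR and TIPARP are shown because they hold GCGTG, the core of the element to which the AHR complex binds, searched on both strands in the same RefSeq windows; capitals mark each match. The windows are chr5:321464-321763 (plus strand, 1 of 2 listed) for AHRR, with 1 match, and chr3:156674340-156674639 (plus strand, 1 of 3) for TIPARP, with 2.
AHRR: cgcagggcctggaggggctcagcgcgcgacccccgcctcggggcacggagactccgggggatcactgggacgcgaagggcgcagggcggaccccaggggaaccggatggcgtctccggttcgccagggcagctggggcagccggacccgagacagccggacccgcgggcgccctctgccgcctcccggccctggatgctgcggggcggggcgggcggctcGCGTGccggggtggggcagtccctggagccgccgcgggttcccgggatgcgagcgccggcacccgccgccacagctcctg
TIPARP: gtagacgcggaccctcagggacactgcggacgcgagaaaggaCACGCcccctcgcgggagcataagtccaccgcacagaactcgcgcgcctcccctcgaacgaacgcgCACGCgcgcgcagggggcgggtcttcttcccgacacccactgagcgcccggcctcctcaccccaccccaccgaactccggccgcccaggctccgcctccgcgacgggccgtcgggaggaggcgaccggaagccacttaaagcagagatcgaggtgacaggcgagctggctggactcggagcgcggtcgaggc
Of the 6 members of the list with a window, 5 held the core, AHR itself among them. The core was held by 40.6% of all 27305 genes, so these 5 letters are common.

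At the lower doses the decoctions were close. At 100 µg/mL 95 of the 17851 genes passed (0.532%), 30 higher (0.168%) and 65 lower (0.364%) with Soshiho-tang, and at 20 µg/mL 21 passed (0.118%), 3 higher (0.0168%) and 18 lower (0.101%). At these doses 1338 and 892 genes had an unadjusted p under 0.05. A share of 0.05 of the genes tested would do so with no difference at all, about as many as the 892 at 20 µg/mL. Without Soshiho-tang replicate 2 or 3 at 100 µg/mL, 41 and 39 genes passed. At 20 µg/mL 8 passed without Soshiho-tang replicate 2 and 13 without Yijin-tang replicate 1. A length and GC correction moved the share of higher genes at 100 µg/mL to 42.7%, against 31.6% without it.

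The contrasts at the 3 doses share no libraries. Of the 21 genes called at 20 µg/mL, 19 passed in the same direction at 100 µg/mL, which is 90.5% of the shorter list and 20% of the longer. Of the 95 called at 100 µg/mL, 76 passed in the same direction at 500 µg/mL (80% of the 95 and 1.94% of the 3918), and 2, STC2 and INSIG1, in the opposite one; the call of INSIG1 at 100 µg/mL was lost under 3 alternatives, as given above. A set of 16 genes passed in the same direction at all 3 doses, and with 1 library of the 20 µg/mL groups left out only 8 to 15 genes in all passed at that dose. In that set CYP1B1, AHRR, TIPARP, CYP2S1, ALDH1A3, ABCG2, KLF9, GDA, DLX2, MLLT3, RIPK4, BEGAIN, GPRC5A and the long noncoding RNA FENDRR were lower with Soshiho-tang, and SEMA7A was among those higher. At 20 µg/mL SEMA7A (edgeR adjusted p = 0.045) did not pass without the low-count filter (edgeR adjusted p = 0.107). Nor did it pass without Soshiho-tang replicate 2 or 3 (edgeR adjusted p = 0.648 and 0.446) or Yijin-tang replicate 1, 2 or 3 at that dose (edgeR adjusted p = 0.155, 0.216 and 0.151), or at 100 µg/mL without Soshiho-tang replicate 2 (edgeR adjusted p = 0.0542).

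CYP2S1, another cytochrome P450, had 6.65 and 6.28 CPM at 500 µg/mL of Soshiho-tang, against 19.3, 19 and 17.5 CPM with Yijin-tang, and its log2 fold changes were -0.58, -0.83 and -1.52 from the lowest to the highest dose. At 20 µg/mL CYP2S1 did not pass without Soshiho-tang replicate 2 or 3 (edgeR adjusted p = 0.214 and 0.485) or without Yijin-tang replicate 1 or 3 (edgeR adjusted p = 0.0713 and 0.0619). ALDH1A3, which makes retinoic acid, had 430 and 464 CPM against 633, 630 and 652 CPM, with log2 fold changes of -0.39, -0.67 and -0.51. In both genes the groups did not overlap at 500 µg/mL. Among genes that met the naming rule, the largest positive fold changes at 100 µg/mL were PTPRB at 0.63, PITPNM3 at 0.43, PODXL at 0.41, FAM72D at 0.41 and KCNMA1 at 0.4. IL6 stood at -0.82. Of these 6 genes KCNMA1 alone passed whichever library was left out. Without Soshiho-tang replicate 2, PTPRB, PITPNM3, PODXL and FAM72D did not pass (edgeR adjusted p = 0.306, 0.157, 0.318 and 0.147), and without Soshiho-tang replicate 3 neither they nor IL6 did (edgeR adjusted p = 0.232, 0.0708, 0.17, 0.232 and 0.148). PTPRB, PODXL and FAM72D were also lost without Yijin-tang replicate 1 (edgeR adjusted p = 0.17, 0.135 and 0.114), PTPRB and PODXL without Yijin-tang replicate 2 (edgeR adjusted p = 0.165 and 0.0708) and PODXL with a replicate block (edgeR adjusted p = 0.0508). FAM72D has near-identical copies, so its value is uncertain.

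THBD, thrombomodulin, an anticoagulant receptor of the cell surface, lay on opposite sides at the lowest and the highest dose. At 20 µg/mL it had 4.62 and 5.53 CPM with Soshiho-tang, against 7.13, 7.79 and 8.48 CPM with Yijin-tang, and at 500 µg/mL 30.7 and 31.5 CPM against 6.99, 7.47 and 7.38 CPM. The Soshiho-tang libraries were the lower ones at 20 µg/mL and the higher ones at 500 µg/mL, with log2 fold changes of -0.61 ± 0.09 and 2.09 ± 0.07 (SE, edgeR adjusted p = 6.26e-05 and 1.24e-26). The call at 20 µg/mL was lost without Soshiho-tang replicate 2 of that dose, at -0.5 (edgeR adjusted p = 0.103).

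**Figure D4:**
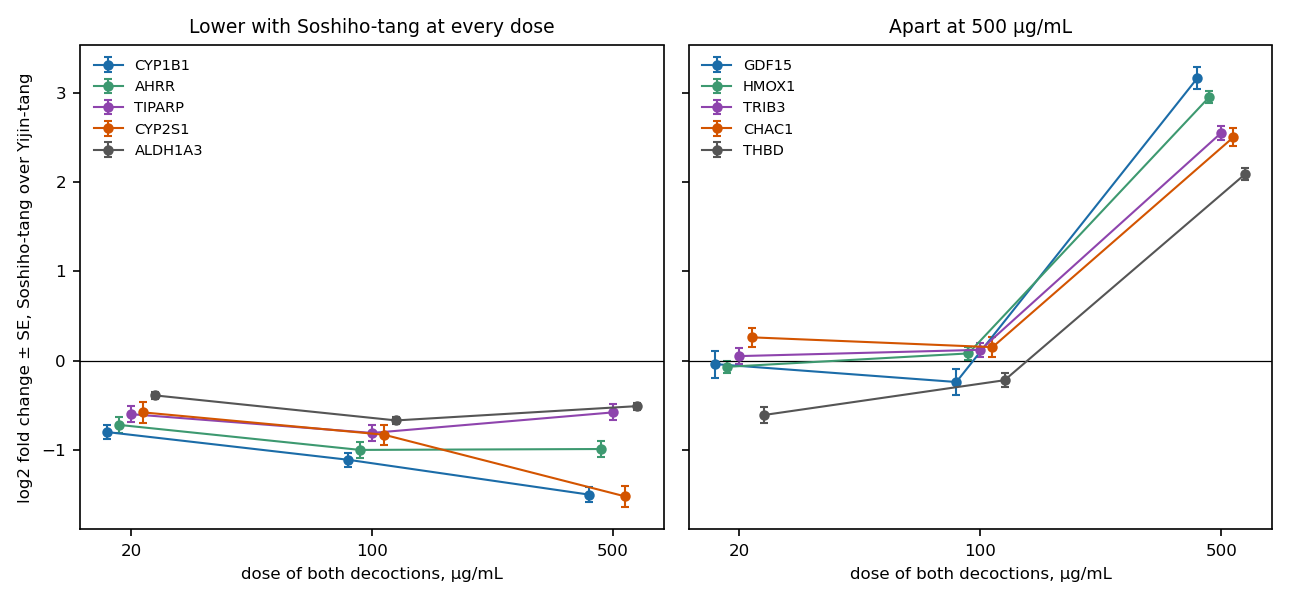
The y axis is the log2 fold change with its SE, Soshiho-tang over Yijin-tang, at each dose in µg/mL on the x axis. Left, 5 genes lower with Soshiho-tang at all doses, such as CYP1B1 at -0.8, -1.11 and -1.5; right, 5 genes that stand apart at 500 µg/mL, such as GDF15 at 3.16, with THBD lower at 20 µg/mL.

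Collagens and other matrix genes were lower with Soshiho-tang: 13 of 24 fell, with a median of -0.4, and the other 11 did not pass. COL1A1, the main chain of type I collagen (chr17:50183289-50201632, minus strand, GRCh38), had 1410 and 1370 CPM with Soshiho-tang, against 3310, 3140 and 3180 CPM with Yijin-tang. Both Soshiho-tang libraries lay far below all Yijin-tang libraries, and the log2 fold change was -1.21 ± 0.05 (SE, edgeR adjusted p = 2.83e-22). COL1A2 had 623 and 605 CPM against 1370, 1350 and 1350 CPM, and COL5A1 766 and 759 CPM against 1730, 1660 and 1730 CPM. The fibrillar chains COL11A1 and COL3A1 stood at -0.97 and -0.87 and the basement membrane chains COL4A1 and COL4A2 at -0.69 and -0.62, while the type VI chains COL6A1 and COL6A2, at -0.03 and 0.01, did not pass. COL1A1 fell by 1.25 from 20 to 500 µg/mL of Soshiho-tang (edgeR adjusted p = 1.23e-21) and stood at -0.13 for the same doses of Yijin-tang (edgeR adjusted p = 0.0733); the difference between these changes was -1.12 (edgeR adjusted p = 5.9e-16). Thrombospondin 1 (THBS1), a matrix glycoprotein, fell by 1.04. Among 14 matrix proteases and their inhibitors 3 rose, PLAUR and ADAMTS1 among them, and 3 fell, ADAMTS5, TIMP3 and MMP2. Over all genes tested, 11.3% rose and 10.6% fell.

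Readouts of BMP and TGF-beta signalling were mostly lower: 14 of 20 fell and 3 rose, with a median of -0.46. ID2, which blocks helix-loop-helix transcription factors and is a direct BMP target, had 6.22 and 5.36 CPM with Soshiho-tang, against 23.4, 22.2 and 21 CPM with Yijin-tang. ID3 had 110 and 96.8 CPM against 308, 311 and 312 CPM. Both were far lower in each Soshiho-tang library than in any Yijin-tang library, with log2 fold changes of -1.93 ± 0.11 and -1.58 ± 0.13 (SE, edgeR adjusted p = 2.82e-18 and 5.42e-13). ID1 and ID4 fell too, by 1.18 and 1.42, as did the inhibitory SMAD6 by 1.44, SMAD9 by 1.18 and the ligand BMP4 by 0.88. Among the 3 that rose were the BMP antagonist GREM1 and CCN2, a standard TGF-beta target, while TGFB2, TGFBI and SMAD7 fell. ATOH8, a further helix-loop-helix factor, fell by 1.8.

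Hypoxia targets of HIF were lower as well, 14 of 17, with 2 higher. EGLN3, an oxygen-sensing prolyl hydroxylase, had 2 and 1.7 CPM with Soshiho-tang, against 6.17, 6.04 and 6.39 CPM with Yijin-tang, a log2 fold change of -1.75 ± 0.15 (SE, edgeR adjusted p = 8.76e-13). CA9, a carbonic anhydrase that is close to silent in well-oxygenated tissue, had 20 and 17.9 CPM against 37.5, 40.1 and 36.5 CPM. BNIP3, P4HA1 and PLOD2 fell by 0.93, 0.73 and 0.61. The 2 that rose were ADM and VEGFA, of which VEGFA also stands in the ATF4 list. In glycolysis 8 of 20 genes fell and 2, SLC2A3 and HK1, rose: LDHA had 1120 and 1110 CPM with Soshiho-tang, against 1650, 1720 and 1670 CPM with Yijin-tang, whereas the glucose transporter gene SLC2A3 had 51.9 and 55.9 CPM against 31.3, 33.5 and 31.6 CPM. Without Soshiho-tang replicate 2, 5 glycolysis genes fell, and without replicate 3, 4 fell and 1 rose.

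Of 8 retinoid genes, CYP26B1, DHRS3, ALDH1A3, RARB and STRA6 fell, with a list median of -0.47. CYP26B1, which degrades retinoic acid and is induced by it, had 20.5 and 18.1 CPM with Soshiho-tang, against 38.4, 41.2 and 36.8 CPM with Yijin-tang, and DHRS3, which reduces retinal, had 17.4 and 16.6 CPM against 30.9, 31.5 and 31.3 CPM. Both were lower in each Soshiho-tang library than in any Yijin-tang library. CYP24A1, which inactivates vitamin D, had 5.09 and 4.94 CPM with Soshiho-tang, against 15.6, 16.5 and 17 CPM with Yijin-tang.

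Genes of cell division were slightly lower. Of 30 mitotic genes 23 fell, with a median of -0.25, and of 29 DNA replication genes 14 fell, with a median of -0.15. From 20 to 500 µg/mL the mitotic median moved by -0.2 with Soshiho-tang and by 0.11 with Yijin-tang. The replication median moved by -0.19 and 0.05, so the difference had parts from both extracts. KIF20A, a kinesin of cytokinesis, had 79.5 and 79.6 CPM with Soshiho-tang, against 132, 132 and 138 CPM with Yijin-tang, a log2 fold change of -0.75 ± 0.05 (SE, edgeR adjusted p = 9.05e-17). TOP2A, the topoisomerase of dividing cells, had 337 and 358 CPM against 462, 481 and 545 CPM, and CCNE2, a cyclin of S-phase entry, 10.8 and 12.7 CPM against 19.5, 20.6 and 22 CPM. In all 3 genes the groups did not overlap. MKI67, the proliferation marker Ki-67, had 197 and 203 CPM against 298, 277 and 319 CPM, but its fold change of -0.57 ± 0.21 (SE, edgeR adjusted p = 0.0389) passed only narrowly. MKI67 did not pass without Soshiho-tang replicate 2 or 3 or without Yijin-tang replicate 1 or 3 (adjusted p = 0.192, 0.152, 0.07 and 0.107).

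Of 20 p53 targets 8 rose and 1, ZMAT3, fell. CDKN1A, the cell cycle inhibitor p21, had 37.5 and 36.4 CPM with Soshiho-tang, against 23.1, 23.8 and 18.2 CPM with Yijin-tang, a log2 fold change of 0.77 ± 0.09 (SE, edgeR adjusted p = 6.8e-09). GDF15, SESN2, GADD45A, PLK3, TNFRSF10B, PMAIP1 and BBC3 made up the rest of the 8, and GDF15 and SESN2 are shared with the ATF4 list. MDM2, the feedback regulator of p53, at 0.05, and BAX, RRM2B and FDXR, at 0.17, -0.02 and 0.03, did not pass. Of 13 BCL2 family genes 4 rose and 2 fell: the death-promoting BBC3 (PUMA) and PMAIP1 (NOXA) rose by 1.88 and 0.84, the survival genes BCL2 and BCL2L1 rose by 0.7 and 0.56, and BMF and BID fell by 0.75 and 0.27. BBC3 rested on low levels, 2.03 and 1.47 CPM against 0.621, 0.465 and 0.351 CPM.

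Interferon-stimulated genes were lower with Soshiho-tang in 11 of 30 members, with a median of -0.23. IFIT1, which binds foreign RNA, had 6.65 and 8.66 CPM with Soshiho-tang, against 14.1, 10.6 and 11.1 CPM with Yijin-tang, and OAS1, an antiviral nucleotide synthetase, 0.566 and 0.948 CPM against 2.69, 1.7 and 1.37 CPM. The groups did not overlap, and the spread within them was wide for these low levels. The log2 fold changes were -0.63 ± 0.12 and -1.32 ± 0.34 (SE, edgeR adjusted p = 1.08e-04 and 0.00289). From 20 to 500 µg/mL the list's median stood at -0.04 with Soshiho-tang and 0.41 with Yijin-tang. This count depended on single libraries: 2 members fell without Soshiho-tang replicate 2, 7 fell and 1 rose without Yijin-tang replicate 1, and OAS1 did not pass without Soshiho-tang replicate 2 (adjusted p = 0.113).

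Immediate early genes, fast-responding transcription factors and their regulators, were higher in 14 of 23 cases and lower in 2, with a median of 0.62. KLF4, a Krüppel-like factor, had 18 and 18.6 CPM with Soshiho-tang, against 5.05, 5.92 and 4.85 CPM with Yijin-tang, and DUSP5, a phosphatase that restrains ERK, 46.8 and 46.7 CPM against 17.1, 13.6 and 14.6 CPM. JUN had 226 and 230 CPM against 115, 112 and 124 CPM, and MYC 110 and 109 CPM against 53.7, 56.6 and 58.8 CPM. All 4 rose, and they were named for the lowest adjusted p of the list, so their lack of overlap is no further result. FOSB, KLF6 and JUND rose by 1.68, 1.51 and 1.22, while FOS, EGR1 and NR4A1, at 0.16, 0.71 and 0.1, did not pass, and JUNB and SRF fell by 0.38 and 0.13. The falls of JUNB and SRF did not both pass when Soshiho-tang replicate 2 or 3 or Yijin-tang replicate 1 or 2 was left out.

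The chaperone genes of the endoplasmic reticulum were not lifted as a group: 5 of 21 rose and 3 fell, with a median of 0. Of all genes tested 11.3% rose and 10.6% fell. HSPA5, the main chaperone BiP, stood at 0.04, HYOU1 at 0.01 and CALR at 0.02, and these did not pass; HSP90B1, PDIA4 and PDIA3 fell by 0.25, 0.18 and 0.13. The 5 that rose were HERPUD1 and SYVN1, of protein degradation at this membrane, the co-chaperone DNAJB9, and XBP1 and its activator ERN1 (IRE1). HERPUD1 had 219 and 208 CPM with Soshiho-tang, against 72.6, 75.4 and 73.5 CPM with Yijin-tang, a log2 fold change of 1.53 ± 0.05 (SE, edgeR adjusted p = 3.91e-27). In cytosolic heat shock 3 of 17 genes rose (DNAJB1, DNAJB4 and HSF1) and 2 fell (HSPA4L and DNAJA1), which is close to the shares of all genes. HSPA1A and HSPA1B, whose sequences are near-identical and whose split is uncertain, stood at -0.07 and 0.07.

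Of 22 autophagy and lysosome genes 9 rose, led by SQSTM1, MAP1LC3B, which coats autophagosomes (0.61), and GPNMB (0.56). The 13 mitochondrially encoded genes lay between -0.12 and 0.28. None passed with edgeR's quasi-likelihood test or the DESeq2 Wald test at an adjusted p of 0.05, and 1 had an unadjusted p under 0.05 with edgeR; 2 passed without the low-count filter or with only the libraries compared, and 1 with the library set alone. Of 7 metallothionein and zinc genes 2 rose and 1 fell: MT1E rose by 0.6 and SLC30A1, a zinc exporter, by 0.38, and SLC39A10 stood at -0.29, a call lost without Soshiho-tang replicate 2, at -0.2 (edgeR adjusted p = 0.288). MT2A, at -0.09, did not pass, and reads of this family are shared between near-identical copies. With 11.3% of all genes tested higher and 10.6% lower, so few calls set the metallothionein and zinc list little apart.

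The change from 20 to 500 µg/mL with Soshiho-tang was tested against that with Yijin-tang, and 1678 genes (9.4%) passed, 911 (5.1%) with the more positive change under Soshiho-tang and 767 (4.3%) with the more negative. Among the lists, 13 of 15 ATF4 stress genes, 26 of 29 amino acid genes and 17 of 25 cholesterol genes had the more positive change under Soshiho-tang, and 20 of 30 mitotic genes, 11 of 24 matrix genes, 11 of 20 BMP and TGF-beta readouts and 8 of 17 HIF targets the more negative. Of the 8 AHR genes 2 and 1 passed in these directions. SEMA7A, whose call at 20 µg/mL was lost with any library of that dose left out, and ALDH1A3, which passed at all 3 doses, did not pass this test, at 0.06 and -0.13 (edgeR adjusted p = 0.81 and 0.241).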

How the data were processed

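Poly(A) RNA of SW1783 cells was sequenced as stranded paired-end libraries, per the labels' protocols. The authors deposited expected counts per gene for 60 libraries and 60675 genes. The submitters' processing notes list FastQC 0.11.9, Trim Galore 0.6.5, STAR 2.7.3a, RSEM 1.3.3 and the build hg38, with neither the annotation release nor the strand setting. RSEM splits the reads of near-identical genes, and 10.86% of the deposited values were not whole, so all were rounded.

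Genes that edgeR's filterByExpr kept (17851) were scaled by TMM and fitted with edgeR 4.0.16 (limma 3.58.1, R 4.3.3) to 54 libraries in 19 groups, all groups of at least 2 libraries, which share 1 estimate of the spread (35 residual and 6.31 prior degrees of freedom). Soshiho-tang was contrasted with Yijin-tang at each dose, and the high-minus-low change of one with that of the other, with quasi-likelihood tests and Benjamini-Hochberg adjustment over all genes at a threshold of 0.05. SE is the standard error of the log2 fold change, and CPM values are scaled counts of each library. On simulated counts for the contrast at 500 µg/mL over 17603 genes, the test recovered 79 of 100 genes changed 1.5-fold and 89 of 100 changed 2-fold, with 9 false calls among 177. The changed genes were drawn from those with a mean over 1 CPM and were far fewer than the genes called in the data. Counts were drawn from the kind of model that the test fits, with spreads estimated from the data, so recovery in real data or at lower levels was not tested. Replicates at 500 µg/mL differed by more than counting noise (chi-square per degree of freedom 2.78 to 6.02), so each was counted.

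The genes named at 500 µg/mL are the 12 largest changes each way among genes that passed, reached a mean of 5 CPM in either group and did not overlap; up to 4 members of each gene list with the lowest adjusted p; and 11 genes named whatever their values. The 5 largest changes each way were named at the lower doses and for the change between doses. The groups, lists and members were chosen with earlier results of these data known, and further list members and comparisons of levels were named after their values were seen. Alternatives were no low-count filter, DESeq2 size factors, the DESeq2 1.42.0 Wald test, fits to only the libraries compared or the library set, a replicate block, a length and GC correction, and leaving out each library. Gene positions are from GENCODE 29 and promoters from RefSeq GRCh38.p14. A few genes that met the naming rule are not reported here.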

Additional observations from a re-analysis of the deposited data

Results flagged for a closer look

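The change from 20 to 500 µg/mL differed between Soshiho-tang and Yijin-tang, by edgeR's test of that difference, in 1678 genes. The 5 largest positive differences among genes that met the naming rule, in log2 units of Soshiho-tang minus Yijin-tang, were 3.2 for GDF15, 3.01 for HMOX1, 2.7 for THBD, 2.49 for TRIB3 and 2.48 for ADM2. Among the largest negative ones were -2.37 for RASL11A, -1.85 for ID2, -1.81 for CYP24A1 and -1.75 for EGLN3. In CYP24A1 and RASL11A the 2 decoctions moved apart: CYP24A1 changed by -1.38 with Soshiho-tang and 0.42 with Yijin-tang, and RASL11A by -1.94 and 0.43.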

How the results depend on the processing

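Of the named genes' values at 500 µg/mL, 1598 kept their direction and side of the threshold under the alternatives, 17 fell below it and 5 rose above it; at 100 µg/mL 36 and 23 did, at 20 µg/mL 25 and 13, and for the change between doses 86 and 34; of the list counts, 755 stayed within 1.5 times and 61 did not. No value reversed under the alternatives run. At 500 µg/mL 3918 genes passed, 3381 without the low-count filter, 3735 with the DESeq2 test, 4729 with only the libraries compared, 5090 with the library set alone and 2508 to 3318 with a library left out. At 100 µg/mL 95 passed, 182 without the filter, 260 with the library set alone, 232 with the length and GC correction and 39 to 73 with a library left out. Without Soshiho-tang replicate 2, 17.1% of the calls at 100 µg/mL were higher. At 20 µg/mL 21 passed, 87 without the filter (43.7% of them higher, against 14.3%), 71 with only the libraries compared, 43 with the library set alone and 8 to 15 with a library left out. The change between doses differed in 1678 genes, 2719 with only the libraries compared, 2588 with the library set alone and 1186 to 1517 with a library left out. The cause of these shifts was not tested. Deviations of same-numbered libraries from their group means correlated at -0.148 to 0.232 (median 0.035 over 33 pairs, 6 of them over 0.1). With 2 Soshiho-tang libraries a dose, the deviations of replicates 2 and 3 mirror each other. Pairs between Soshiho-tang doses therefore repeat the same value, such as 0.131, and are not separate. The numbers were not taken as pairs, and a replicate block gave 3841, 102 and 30 calls at 500, 100 and 20 µg/mL and 1804 for the change between doses. With 2 Soshiho-tang libraries a dose, small differences, above all of genes at low counts, are the least certain.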

Other observations

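GRAP and PPAN-P2RY11 passed at 500 µg/mL with 1 group at 0, and were singled out after their values were seen. GRAP was listed at 0 in both Soshiho-tang libraries, against 0.497, 0.426 and 0.639 CPM with Yijin-tang. PPAN-P2RY11, a readthrough gene, had 0.965 and 2.65 CPM with Soshiho-tang and was listed at 0 in all 3 Yijin-tang libraries. Both overlap or resemble other genes, so the split of their reads is uncertain.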
